A study of Mus musculus with 8 samples.

Results

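Transcripts of the AP-1 transcription factor family and its relative Atf3 were followed in mouse regulatory T (Treg) cells that lacked 1 or both genes of the alternative NF-kB pathway. They were taken by symbol from the deposited expression table, which lists 22432 genes, and the 9 are Jun, Junb, Jund, Fos, Fosb, Fosl1, Fosl2, Batf3 and Atf3. All 9 were listed, and 8 of them passed the filter on low values, which asked for an average of 1 or more over the 8 libraries after un-logging. Batf3 did not pass. The cells were C57Bl/6 Treg cells of 4 genotypes with n = 2 libraries each. RelB-KO cells carried Foxp3-CRE-YFP with RelB F/F, Nfkb2-KO cells carried it with nfkb2 F/F, DKO cells carried it with both floxed genes, and WT cells carried Foxp3-CRE-YFP alone. Cre was thus driven by Foxp3 in all groups, WT included, and the floxed genes were deleted in cells that express Foxp3. YFP+ cells were sorted from spleens and lymph nodes that were pooled. All were then stimulated for 16 h in wells coated with anti-CD3 (5 µg/ml), with soluble anti-CD28 (1 µg/ml), agonist anti-OX40 (2 µg/ml) and mouse IL-2 (10 ng/ml). No ages or numbers of animals are given in the sources used here, nor whether replicates 1 and 2 were different mice. The p-values therefore measure only the spread between these libraries, which may be technical.

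AP-1 is a dimer of basic leucine zipper (bZIP) proteins. Jun proteins pair with each other or with Fos proteins, Fos proteins need a Jun partner, and BATF and ATF proteins join the same network, so which dimers form depends on which members a cell makes. T cell receptor and CD28 signals induce AP-1 through MAP kinases, and AP-1 works beside NFAT and NF-kB at cytokine genes. RelB and p52, the product of Nfkb2, form the main dimer of the alternative NF-kB pathway, which OX40 and related receptors activate, and the uncleaved Nfkb2 product p100 holds RelB and other NF-kB proteins in the cytoplasm.

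Jun, Junb and Atf3 are the members on which the results turn, so the 250 bases before their RefSeq transcription starts are shown, from build GRCm38.p6 and 5′ to 3′ on the gene's own strand, the minus strand for all 3. The capitals mark the TGACATCA motif in Jun (chr4:95052223-95052472), the TGACG motif in Junb (chr8:84978749-84978998) and the TTACGTCA motif in Atf3 (chr1:191183334-191183583).
Jun: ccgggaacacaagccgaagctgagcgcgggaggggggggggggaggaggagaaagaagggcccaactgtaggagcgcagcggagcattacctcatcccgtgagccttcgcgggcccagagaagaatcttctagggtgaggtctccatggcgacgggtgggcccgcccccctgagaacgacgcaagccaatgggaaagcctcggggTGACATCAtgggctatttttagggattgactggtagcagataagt
Junb: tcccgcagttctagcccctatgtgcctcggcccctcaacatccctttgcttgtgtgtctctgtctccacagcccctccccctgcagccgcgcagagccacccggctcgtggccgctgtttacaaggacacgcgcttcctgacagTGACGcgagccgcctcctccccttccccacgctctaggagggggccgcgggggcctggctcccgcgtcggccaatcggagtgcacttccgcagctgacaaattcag
Atf3: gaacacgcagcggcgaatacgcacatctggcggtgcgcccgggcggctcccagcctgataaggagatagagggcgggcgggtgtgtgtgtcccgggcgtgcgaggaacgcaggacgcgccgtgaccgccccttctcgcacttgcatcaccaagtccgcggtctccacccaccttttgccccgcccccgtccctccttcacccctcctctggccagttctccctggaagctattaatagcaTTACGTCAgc
TGACATCA began 45 bases before the Jun start. It is a variant of the CRE, TGACGTCA, the palindrome that ATF and CREB proteins bind, and is known as a site for Jun and ATF2 dimers. TGACG is a part of the CRE that CREB proteins can also bind, and it began 106 bases before the Junb start. TTACGTCA began 10 bases before the Atf3 start and holds TGACG on the other strand.

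The windows of 300 bases (250 before and 50 after the start) were searched on both strands for 8 of the 9 members. No window held TGACTCA or TGAGTCA, the AP-1 site proper, which 5.2% of all 32851 windows of that length held, and no window held the CRE (1.79%) or a CArG box, the site of serum response factor (1.63%). TGACG was in the windows of Junb, Fos, Fosb and Atf3, against 20.8% of all windows. The NF-kB motif was in those of Fos, Fosb and Fosl2, against 8.46%, and its pair of matches in Fosl2 overlap, 1 on each strand. TGACATCA was in 3.62% of all windows and TTACGTCA in 0.499%, and both motifs were chosen after the windows had been read. The windows of Jund and Batf3 held none of these motifs. The RefSeq starts lay within 31 bases of a transcript start in GENCODE vM21, the source of the gene positions given here, except for Fosl2 (299 bases) and Jund, whose RefSeq start lay 1210 bases before the Jund position given here, so that the Jund window does not cover the start of that locus. Against the start of the whole locus, the RefSeq start lay 34706 bases inside for Atf3, 671 for Fosl2 and 567 for Batf3. Their windows, that of Atf3 shown above among them, thus do not cover the start of the locus given here. A match describes these letters and shows no binding.

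Relb was listed at 6.35 and 6.52 in RelB-KO and at 6.74 and 7.08 in DKO libraries, against 10.49 to 10.84 in the others. Nfkb2 was at 8.75 and 8.79 in Nfkb2-KO and at 9.29 and 9.85 in DKO libraries, against 12.31 to 12.80. Both transcripts were thus higher in DKO libraries than in those of the matching single knockout. The part of this in the comparisons of DKO cells was not tested. WT replicate 1 stood apart, with Xist at 8.17 against 14.61 to 15.13 in the other 7 libraries and the Y-linked Ddx3y at 11.60 against 4.25 to 4.35, so comparisons with WT are also given without it. Foxp3 was between 13.95 and 14.28 in all 8 libraries, and all 8 Treg and T cell markers were listed well above 0. The values are log2 expression relative to library size, and of the depth only the design's figure of 30 M reads a sample is known. In bulk RNA, fewer cells that make a transcript and less of it per cell cannot be told apart. Genes were called in a limma model of genotype alone when p, adjusted by Benjamini-Hochberg over the 13797 genes tested, was under 0.05. Replicate numbers paired the samples, so the value of the model that also holds replicate number as a block ("with the block") is given where it changes a call.

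Transcripts of the 3 Jun genes and of Fosl2 were the most abundant of the 9 in these stimulated cells. On a scale per kilobase of exon (log2 level less the log2 of exonic kilobases, mean of all 8 libraries), the level was 12.45 for Junb, 12.30 for Jund, 9.35 for Jun and 9.31 for Fosl2. Atf3 followed at 8.56, Fos at 6.84, Fosl1 at 6.04 and Fosb at 5.18, and Batf3 was last at −1.65. By genotype, the level per kilobase of Junb was 12.26 in RelB-KO, 12.78 in Nfkb2-KO, 12.39 in DKO and 12.35 in WT cells, and that of Jund was 12.22, 12.30, 12.27 and 12.41 in the same order, so Jund was above Junb in WT cells and below it in the knockouts. In RelB-KO, DKO and WT cells the gap between the pair was within the SD of either gene. By their means Jun and Fosl2 changed places in the same way. In RelB-KO and DKO cells, however, their gap was within the SD of Fosl2 (0.64 and 0.27). The level per kilobase of Jun was 9.54, 9.76, 9.17 and 8.94 in those genotypes, and that of Fosl2 was 9.33, 9.40, 9.08 and 9.43.

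**Figure D1:**
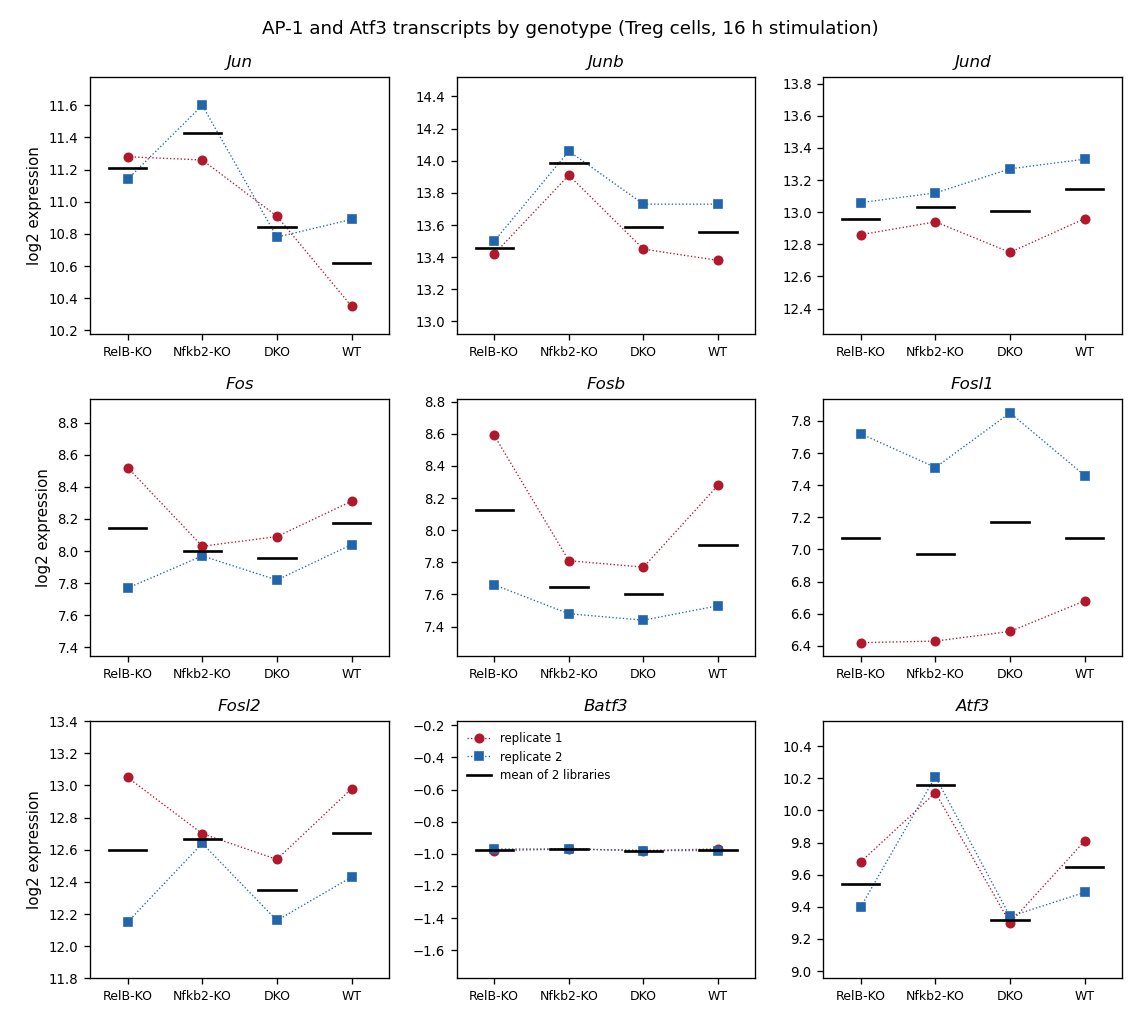
Deposited log2 expression (vertical axis, its own range of the same width in each panel) of the 9 genes in RelB-KO, Nfkb2-KO, DKO and WT Treg cells. Circles are replicate 1, squares are replicate 2, dotted lines join libraries of 1 replicate number and black bars are means of 2 libraries. Both Nfkb2-KO libraries are the highest for Junb (13.91 and 14.06) and Atf3 (10.11 and 10.21), and replicate 2 lies above replicate 1 in every genotype for Fosl1.

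The members that passed a test were Jun, Junb and Atf3, in comparisons that involve Nfkb2-KO cells. With genotype alone, 0 of the 8 tested members were called in each of the 7 comparisons run, and the background was low as well. In Nfkb2-KO against WT cells 0.341% of all genes were called, and 3 members against 10.7% of all genes had an unadjusted p under 0.05. With the block, 2 of 8 members were called in this comparison, Jun and Junb, both higher, against 2.91% of all genes in either direction and 1.91% in the higher direction. The 2 groups did not overlap for 4 members. Jun, Junb and Atf3 were higher and Fos was lower, beside 21.6% of all genes higher without overlap and 20.9% lower. The median difference of the 8 members was −0.07 and that of all genes 0.00.

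In RelB-KO against WT cells 0 members were called by either model, against 0.00725% of all genes with genotype alone and 0.0145% with the block. Jun was the 1 member without overlap, higher, beside 9.63% of all genes. With genotype alone it was also the 1 member with an unadjusted p under 0.05, against 1.24% of all genes. In DKO against WT cells 0 members were called, against 0.0145% and 0.0652% of all genes by those models. With genotype alone 0 had an unadjusted p under 0.05, against 5.18% of all genes. Atf3 was the 1 member without overlap here, lower, beside 17.6% of all genes.

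In cells that already lacked Nfkb2, the further loss of RelB went with lower Junb and Atf3. In DKO against Nfkb2-KO cells 0 members were called with genotype alone, against 0.768% of all genes, and 3 had an unadjusted p under 0.05, against 9.86%. With the block Junb and Atf3 were called, both lower, 2 of 8 members against 5.02% of all genes in either direction and 2.96% in the lower direction. Jun, Junb, Fosl2 and Atf3 were lower without overlap, 4 of 8 members beside 17.8% of all genes. In DKO against RelB-KO cells 0 members were called, against 0.00725% and 0.0145% of all genes by the 2 models. With genotype alone 0 had an unadjusted p under 0.05, against 2.88%. Jun and Atf3 were lower without overlap there, beside 14.3% of all genes.

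Between the single knockouts, Nfkb2-KO cells had more Junb and Atf3 than RelB-KO cells. With genotype alone 0 members were called, against 0.797% of all genes, and these 2 had an unadjusted p under 0.05, against 11.9%. Both were called with the block, higher in Nfkb2-KO cells, against 4.46% of all genes in either direction and 2.78% in the higher direction. They were also the 2 members without overlap, beside 20.9% of all genes higher. These comparisons share libraries, Nfkb2-KO libraries among them, so the lower values in DKO cells and the higher ones against WT and RelB-KO cells are not independent of each other.

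**Figure D2:**
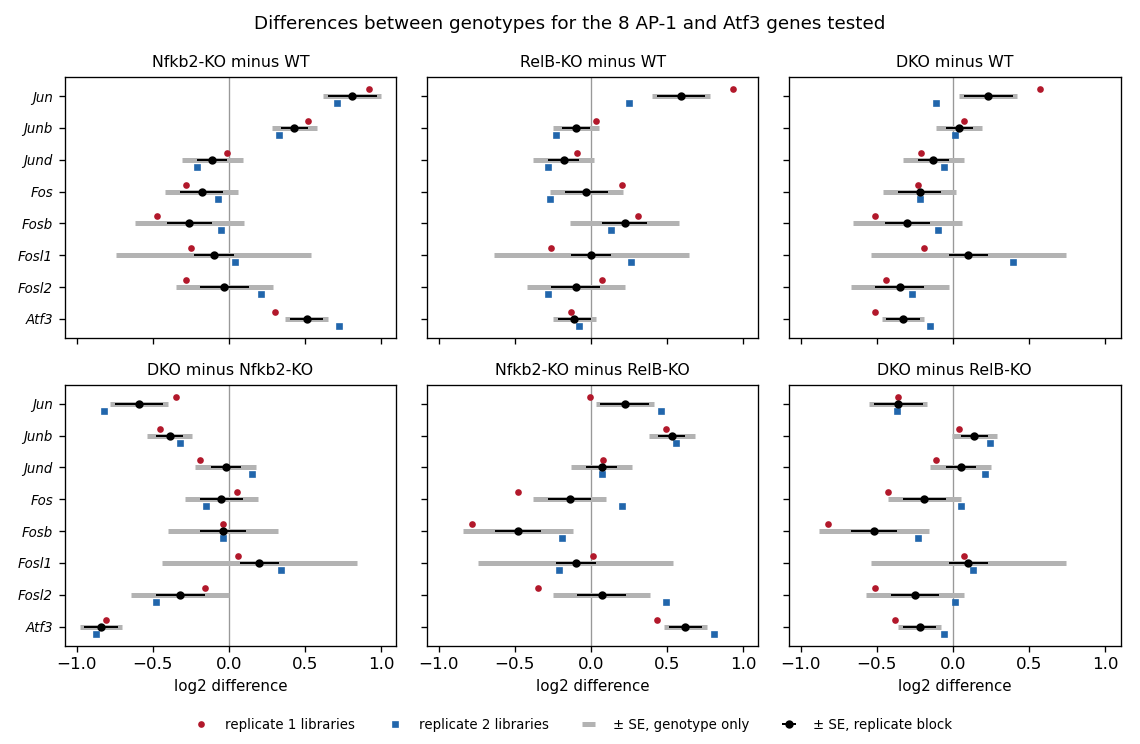
Log2 differences (horizontal axis, first-named genotype minus the second) of the 8 tested genes in 6 comparisons. Black points are the mean difference, thick grey bars its SE with genotype alone and thin black bars its SE with the replicate block. Red circles and blue squares are the differences between libraries of replicate 1 and of replicate 2. Atf3 in DKO minus Nfkb2-KO has its pair at −0.81 and −0.87, while Jun in DKO minus WT has its pair at 0.57 and −0.11.

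Jun (chr4:95049034-95052222, mm10, minus strand, a gene of 1 exon) encodes c-Jun, the partner of most Fos proteins and a target of the JNK kinases. Its log2 level was 11.28 and 11.14 in RelB-KO libraries, 11.26 and 11.60 in Nfkb2-KO libraries, 10.91 and 10.78 in DKO libraries and 10.35 and 10.89 in WT libraries (replicates 1 and 2). All 4 libraries of the single knockouts lay above all 4 of DKO and WT cells, and DKO and WT overlapped. The means were 11.21 ± 0.10, 11.43 ± 0.23, 10.84 ± 0.10 and 10.62 ± 0.38 in that order (SD, n = 2 each).

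Jun was 0.81 ± 0.19 higher on the log2 scale in Nfkb2-KO than in WT cells (SE; 1.76-fold, adjusted p = 0.232), by 0.92 and 0.71 in the replicate pairs, and passed with the block (± 0.16, adjusted p = 0.0323). The WT libraries differ by 0.54, and the difference depended on them. Without WT replicate 1 it was 0.55 (adjusted p = 0.117 with the block) and without WT replicate 2 it was 1.07 (0.00955). It was also not called with the block without Nfkb2-KO replicate 1 (0.93, adjusted p = 0.0789) or replicate 2 (0.69, 0.173). The authors' deposited table gives a log2 fold change of 0.75 for Jun in Nfkb2-KO cells (adjusted p = 0.000112).

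In RelB-KO cells Jun was 0.59 ± 0.19 above WT (1.51-fold, adjusted p = 1 by both models, unadjusted p = 0.0204), and the replicate pairs gave 0.93 and 0.25. Without WT replicate 1 the difference was 0.33 with the block (adjusted p = 0.985). The authors' deposited table has 0.54 with an adjusted p of 0.195. In DKO cells Jun differed from WT by 0.23 ± 0.19 (adjusted p = 0.898), and without WT replicate 1 by −0.04 with the block. In DKO against Nfkb2-KO cells Jun differed by −0.59 ± 0.19 (0.666-fold, adjusted p = 0.352, and 0.0755 with the block). With the block that difference lay between −0.778 and −0.395 when each library was left out in turn.

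The interaction asks whether loss of RelB acted differently in cells without Nfkb2 than in cells with it. In it 0 members were called, against 0.00725% of all genes with genotype alone and 0.471% with the block. With genotype alone Jun and Atf3 had an unadjusted p under 0.05, 2 of 8 members against 4.45% of all genes. For Jun the interaction was −1.18 ± 0.27 (adjusted p = 0.610, and 0.0744 with the block). With the block it lay between −1.44 and −0.916 when each library was left out in turn.

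Junb (chr8:84974484-84978718, minus strand) encodes a Jun protein that is a weaker activator than c-Jun and works with BATF and IRF4 in T cells. Its log2 level was 13.42 and 13.50 in RelB-KO libraries, 13.91 and 14.06 in Nfkb2-KO libraries, 13.45 and 13.73 in DKO libraries and 13.38 and 13.73 in WT libraries. Both Nfkb2-KO libraries lay above the other 6, which overlapped one another. The means were 13.46 ± 0.06, 13.98 ± 0.11, 13.59 ± 0.20 and 13.56 ± 0.24 (SD, n = 2 each).

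Junb was 0.43 ± 0.15 higher in Nfkb2-KO than in WT cells (1.34-fold, adjusted p = 0.395) and passed with the block (± 0.09, adjusted p = 0.0393). Without WT replicate 1 the difference was 0.34 (adjusted p = 0.146 with the block). It was also lost without either Nfkb2-KO library (0.38 without replicate 1, adjusted p = 0.292, and 0.47 without replicate 2, 0.141) or either DKO library (0.43 in both cases, adjusted p = 0.0610 and 0.0599). The authors' deposited table gives 0.45 (adjusted p = 0.00036). Against RelB-KO cells Junb was 0.53 ± 0.15 higher in Nfkb2-KO cells (1.44-fold, adjusted p = 0.244, and 0.0126 with the block), by 0.49 and 0.56 in the pairs. That call was lost with the block without RelB-KO replicate 2 (0.44, adjusted p = 0.106), Nfkb2-KO replicate 1 (0.48, 0.134) or Nfkb2-KO replicate 2 (0.57, 0.0549). In DKO against Nfkb2-KO cells Junb differed by −0.39 ± 0.15 (0.764-fold, adjusted p = 0.463, and 0.0387 with the block). Without any 1 of the DKO or Nfkb2-KO libraries the adjusted p with the block was 0.156 to 0.293. In DKO cells Junb differed from WT by 0.04 ± 0.15 and in RelB-KO cells by −0.10 ± 0.15, neither past the threshold, and without WT replicate 1 these values were −0.05 and −0.19 with the block.

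Jund (chr8:70698949-70700616, plus strand) encodes the Jun protein that resting cells already make. Its log2 level was 12.86 and 13.06 in RelB-KO libraries, 12.94 and 13.12 in Nfkb2-KO libraries, 12.75 and 13.27 in DKO libraries and 12.96 and 13.33 in WT libraries. The genotypes overlapped throughout, and no comparison of Jund passed, the lowest adjusted p being 0.931 with genotype alone and 0.576 with the block. The SE of a difference was 0.20 and 0.10 by these models.

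Atf3 (chr1:191170296-191218039, minus strand) encodes a stress-induced bZIP protein that represses many promoters as a homodimer and also pairs with Jun proteins. Its log2 level was 9.68 and 9.40 in RelB-KO libraries, 10.11 and 10.21 in Nfkb2-KO libraries, 9.30 and 9.34 in DKO libraries and 9.81 and 9.49 in WT libraries. Both Nfkb2-KO libraries were above all others and both DKO libraries below all others, while RelB-KO and WT overlapped. The means were 9.54 ± 0.19, 10.16 ± 0.07, 9.32 ± 0.03 and 9.65 ± 0.23 (SD, n = 2 each).

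With all libraries in the fit, the difference between DKO and Nfkb2-KO cells in Atf3 was larger than that of any other member in the 6 comparisons of 2 genotypes. It was −0.84 ± 0.14, lower in DKO cells (0.559-fold, adjusted p = 0.0617), and passed with the block (± 0.11, adjusted p = 0.00483), by −0.81 and −0.87 in the pairs. Without DKO replicate 1 it was −0.74 (adjusted p = 0.0662 with the block), and in the other 7 cases it passed with the block, at values from −0.98 to −0.69. Atf3 was 0.62 ± 0.14 higher in Nfkb2-KO than in RelB-KO cells (1.54-fold, adjusted p = 0.147, and 0.0195 with the block). This call was lost without RelB-KO replicate 2 (0.51, adjusted p = 0.136) or Nfkb2-KO replicate 2 (0.47, 0.140).

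Against WT, Atf3 was 0.51 ± 0.14 higher in Nfkb2-KO cells (1.43-fold), with adjusted p = 0.267 and just outside the threshold with the block (± 0.11, adjusted p = 0.0525). Without WT replicate 1 it was 0.65 (adjusted p = 0.0603 with the block) and without WT replicate 2 it was 0.37 (0.267). Without RelB-KO replicate 1 or 2 it passed with the block at 0.51 (adjusted p = 0.0455 and 0.0452). The authors' deposited table gives 0.54 (adjusted p = 0.0067). In DKO cells Atf3 was −0.33 ± 0.14 against WT (0.797-fold, adjusted p = 0.861, and 0.314 with the block), and the authors' deposited table gives −0.35 with an adjusted p of 0.258. In RelB-KO cells it was −0.11 ± 0.14. Without WT replicate 1 these values were −0.19 and 0.03 with the block. The interaction was −0.73 ± 0.19 (adjusted p = 0.769, and 0.123 with the block), below 0 as for Jun and not past the threshold. In all, the authors' deposited adjusted p was under 0.05 for 3 members in Nfkb2-KO cells, where it was so for 6.22% of the genes with a value (3.49% in the higher direction, that of these members). It was under 0.05 for 0 members in RelB-KO cells (0.119% of genes) and for 0 in DKO cells (1.23%).

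The Fos proteins form AP-1 with Jun partners and cannot pair with each other. Fos, the classic immediate-early gene (chr12:85473890-85477273, plus strand), was 8.52 and 7.77 in RelB-KO libraries, 8.03 and 7.97 in Nfkb2-KO libraries, 8.09 and 7.82 in DKO libraries and 8.31 and 8.04 in WT libraries. Fosb (chr7:19302696-19310051, minus strand), likewise immediate-early, was 8.59 and 7.66 in RelB-KO libraries, 7.81 and 7.48 in Nfkb2-KO libraries, 7.77 and 7.44 in DKO libraries and 8.28 and 7.53 in WT libraries. In every genotype replicate 1 was the higher library for both genes, and RelB-KO replicate 1 was the highest of all 8. Fosl2 (chr5:32135801-32157842, plus strand) encodes Fra-2, a Fos protein that persists after stimulation. It was 13.05 and 12.15 in RelB-KO libraries, 12.70 and 12.64 in Nfkb2-KO libraries, 12.54 and 12.16 in DKO libraries and 12.98 and 12.43 in WT libraries. It too had replicate 1 above replicate 2 in each genotype.

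No comparison of Fos, Fosb or Fosl2 passed. The lowest adjusted p of Fos was 0.889 with genotype alone and 0.534 with the block, and that of Fosl2 was 0.906 and 0.377. Fosb came nearest with the block, at −0.48 ± 0.15 in Nfkb2-KO against RelB-KO cells (adjusted p = 0.108, and 0.694 with genotype alone). It was −0.52 ± 0.15 in DKO against RelB-KO cells (adjusted p = 0.546 with the block, unadjusted p = 0.00669). Both differences were larger in replicate 1, where the RelB-KO library was high, at −0.78 and −0.82, than in replicate 2, at −0.19 and −0.23.

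Fosl1 (chr19:5447547-5455946, plus strand) encodes Fra-1, a Fos protein made late after stimulation. It was 6.42 and 7.72 in RelB-KO libraries, 6.43 and 7.51 in Nfkb2-KO libraries, 6.49 and 7.85 in DKO libraries and 6.68 and 7.46 in WT libraries. The 4 libraries of replicate 2 all lay above the 4 of replicate 1, and the genotypes overlapped. Its SE was 0.64 with genotype alone and 0.13 with the block, and the lowest adjusted p was 0.987 and 0.548.

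There were 6 members that differed between the replicate numbers in the same direction in all 4 genotypes. The share of all genes that did so was not counted. Over all genes tested, replicate differences correlated at 0.812 to 0.887 between genotypes, so a shared direction is not particular to these members. Replicate 2 minus replicate 1 averaged 1.13 for Fosl1 over the 4 genotypes (0.79 to 1.36), which placed it at percentile 98.9 of all genes tested. Jund (mean 0.32, percentile 95) and Junb (0.21, percentile 91.6) were higher in replicate 2 in all 4 genotypes. Fosb (−0.59, percentile 0.9), Fosl2 (−0.48, percentile 1.2) and Fos (−0.34, percentile 2.2) were lower in all 4. Jun (0.15) and Atf3 (−0.11) were higher in replicate 2 in 2 genotypes and lower in 2. The deposited values, called batch corrected in the file header, thus still hold a replicate difference in which immediate-early Fos genes and Fosl1 moved in opposite directions. What differed between the replicates is not stated in the sources used here. Markers of other cells differed between them too. The summed un-logged level of myeloid markers was 105 and 65.9 in RelB-KO, 76.2 and 65.4 in Nfkb2-KO, 94.2 and 66.3 in DKO and 78.6 and 65.6 in WT libraries (replicates 1 and 2), higher in replicate 1 in all 4 genotypes and highest in RelB-KO replicate 1, as for Fos, Fosb and Fosl2. Lyz2, the lysozyme of myeloid cells, had a log2 level of 5.79 and 4.72 in RelB-KO, 5.08 and 4.72 in Nfkb2-KO, 5.61 and 4.74 in DKO and 5.21 and 4.73 in WT libraries. The sum of dendritic cell markers was likewise higher in replicate 1 in all 4 genotypes, and that of CD8 T and NK cell markers was higher in replicate 2 in all 4. The part of these markers in the replicate difference was not tested.

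**Figure D3:**
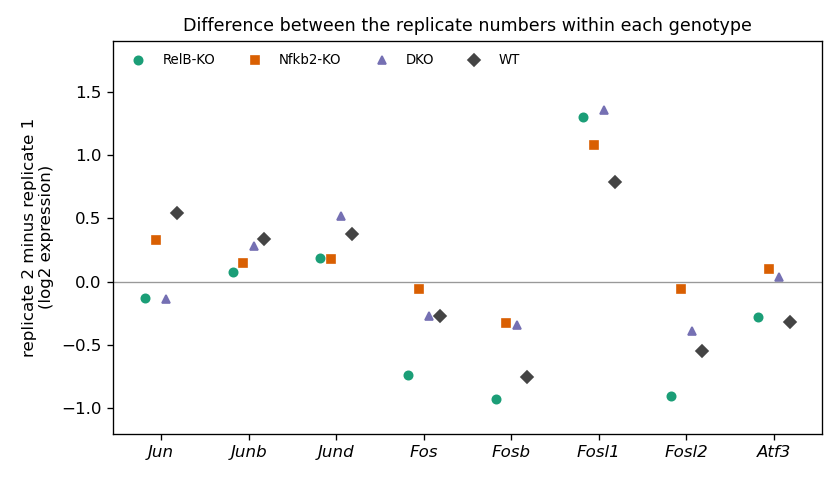
Replicate 2 minus replicate 1 in log2 expression (vertical axis) for the 8 tested genes (horizontal axis), with 1 symbol for each genotype. Fosl1 lies between 0.79 and 1.36 in all 4 genotypes, and Fos, Fosb and Fosl2 lie below 0 in all 4.

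Batf3 (chr1:191097847-191108945, plus strand) encodes a small bZIP partner of Jun that dendritic cells of type 1 need and that activated T cells can express. It was listed at −0.98 or −0.97 in all 8 libraries, a mean un-logged value of 0.508, at percentile 10.9 of the genes not listed at 0 throughout. The gene did not pass the low value filter and its values hardly varied, so no test was made and no difference was detectable. The authors' deposited table gives fold changes for it between −0.01 and 0.01 and no adjusted p.

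Exons of 4 members overlap a gene on the opposite strand, 232 bases of Jun with Junos, 173 of Junb with Prdx2, 877 of Jund with Gm11175 and 1163 of Fosl1 with Ccdc85b. Whether the counting used strand is not given in the sources used here, and without it reads from either partner cannot be told apart.

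Among 26 tested of 27 other bZIP genes, Nfe2l3, a CNC-type factor, was the only gene called with genotype alone. Its log2 level was 4.09 and 3.98 in RelB-KO libraries, 4.58 and 4.47 in Nfkb2-KO libraries, 4.11 and 3.98 in DKO libraries and 4.06 and 4.01 in WT libraries. These levels are low and lie below a stricter minimum of 32 un-logged, so Nfe2l3 was not tested under that alternative. Both Nfkb2-KO libraries were above the other 6, as for Junb and Atf3. It fell by 0.48 ± 0.07 in DKO against Nfkb2-KO cells (adjusted p = 0.0474, and 0.00116 with the block) and rose by 0.49 ± 0.07 in Nfkb2-KO against RelB-KO cells (0.0431 and 0.00114). Against WT it was 0.48 ± 0.07 higher in Nfkb2-KO cells (adjusted p = 0.0698, and 0.00201 with the block, or 0.0182 without WT replicate 1). Its interaction, −0.48 ± 0.07, passed with the block alone (adjusted p = 0.0356) and not without WT replicate 1 (−0.45, 0.0998). With the block 1 of the 26 rose in Nfkb2-KO against WT cells, 2 rose and 2 fell in DKO against Nfkb2-KO cells, and 2 rose and 2 fell in Nfkb2-KO against RelB-KO cells. Of all genes, 2.91%, 5.02% and 4.46% were called in either direction with the block in these comparisons. The same shares stand beside the lists that follow. In DKO against Nfkb2-KO cells Maf, a T cell factor that drives Il10, was 0.82 ± 0.16 higher (adjusted p = 0.0244) and Jdp2, a repressor that competes with Fos for Jun, 0.64 ± 0.11 higher (0.0122), while Creb1 fell by 0.35 ± 0.07 (0.0308). In Nfkb2-KO against RelB-KO cells Atf6, a sensor of endoplasmic reticulum stress, was 0.42 ± 0.08 higher (adjusted p = 0.0254), while Jdp2 fell by 0.49 ± 0.11 (0.0411) and Ddit3, a factor of the same stress, fell by 0.54 ± 0.10 (0.0199). The medians of the list lay between −0.04 and 0.03 over the 7 comparisons, beside 0.00 for all genes.

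Of 8 partners and co-regulators of BATF-JUN dimers, Irf4, the factor that binds beside BATF and Jun in T cells, passed with the block. It was 13.11 and 13.16 in RelB-KO libraries, 13.76 and 13.82 in Nfkb2-KO libraries, 13.44 and 13.56 in DKO libraries and 13.40 and 13.06 in WT libraries. Irf4 was 0.56 ± 0.11 higher in Nfkb2-KO than in WT cells (adjusted p = 0.0364 with the block, 0.210 without it), and 0.77 higher without WT replicate 1 (0.00951 with the block). It was 0.65 ± 0.11 higher in Nfkb2-KO than in RelB-KO cells (0.0141 and 0.104). No comparison of DKO cells passed for Irf4. Jdp2, also in this list, is given above.

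Among 27 tested of 28 MAP kinase genes and ternary complex factors, which carry T cell receptor signals to AP-1 genes, Elk3 was the 1 gene that passed with the block. It was 11.05 and 11.01 in RelB-KO libraries, 11.89 and 11.46 in Nfkb2-KO libraries, 11.31 and 11.32 in DKO libraries and 11.12 and 11.13 in WT libraries. Elk3, a ternary complex factor that binds with serum response factor, was 0.55 ± 0.11 higher in Nfkb2-KO than in WT cells (adjusted p = 0.0376 with the block, 0.240 without it). That was lost without WT replicate 1 (0.46, adjusted p = 0.142). Elk3 was 0.65 ± 0.11 higher in Nfkb2-KO than in RelB-KO cells (0.0140 and 0.126). Prkcq, the protein kinase C of the T cell receptor, had the lowest p of the list in Nfkb2-KO against WT cells with genotype alone, at −0.40 ± 0.09, and passed with neither model (adjusted p = 0.213, and 0.0504 with the block). The medians of this list lay between −0.13 and 0.01.

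Of 17 feedback genes of MAP kinases and AP-1, Dusp10, a phosphatase of JNK and p38, passed with the block. Dusp10 was 9.56 and 9.22 in RelB-KO libraries, 8.77 and 8.64 in Nfkb2-KO libraries, 9.41 and 9.17 in DKO libraries and 9.56 and 9.05 in WT libraries, lowest in both Nfkb2-KO libraries. It fell by 0.60 ± 0.10 in Nfkb2-KO against WT cells (adjusted p = 0.0157 with the block, 0.362 without it), a call that was lost without WT replicate 1 (−0.47, 0.0824). It was 0.59 ± 0.10 higher in DKO than in Nfkb2-KO cells (0.0111 and 0.357) and fell by 0.69 ± 0.10 in Nfkb2-KO against RelB-KO cells (0.00601 and 0.237). No other gene of this list passed by either model in these comparisons.

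Among 17 other immediate-early genes, Zfp36, whose product degrades cytokine mRNAs, was 11.37 and 11.51 in RelB-KO libraries, 11.05 and 11.03 in Nfkb2-KO libraries, 11.39 and 11.50 in DKO libraries and 11.43 in both WT libraries. Both Nfkb2-KO libraries were below the other 6. Zfp36 fell by 0.39 ± 0.07 in Nfkb2-KO against WT cells (adjusted p = 0.0300 with the block, 0.173 without it, and 0.118 with the block but without WT replicate 1). It was 0.40 ± 0.07 higher in DKO than in Nfkb2-KO cells (0.0159 and 0.103) and fell by 0.40 ± 0.07 in Nfkb2-KO against RelB-KO cells (0.0185 and 0.114). With the block Btg1, a growth inhibitor, fell by 0.59 ± 0.11 in DKO against Nfkb2-KO cells (adjusted p = 0.0164). Klf2, a factor of resting T cells, fell by 0.67 ± 0.13 in Nfkb2-KO against RelB-KO cells (adjusted p = 0.0256). The median of these 17 genes was 0.08 in Nfkb2-KO against WT cells and −0.24 in DKO against Nfkb2-KO cells, beside 0.00 for all genes.

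Of 23 known AP-1 target genes, 0 were called in any comparison with WT by either model. With the block the share of all genes was 2.91% in Nfkb2-KO, 0.0145% in RelB-KO and 0.0652% in DKO cells against WT. In Nfkb2-KO against RelB-KO cells 2.78% of all genes were called in the higher direction with the block. With the block 3 rose in Nfkb2-KO against RelB-KO cells, Il2 by 0.71 ± 0.14 (adjusted p = 0.0257), Fasl by 0.56 ± 0.10 (0.0151) and Ifng by 0.55 ± 0.12 (0.0406). Il2 and Ifng encode cytokines and Fasl a death ligand. With the block Fasl fell by 0.52 ± 0.10 in DKO against Nfkb2-KO cells (adjusted p = 0.0190). It was 7.74 and 8.02 in RelB-KO libraries, 8.39 and 8.49 in Nfkb2-KO libraries, 7.88 and 7.96 in DKO libraries and 8.13 and 8.07 in WT libraries. Both Nfkb2-KO libraries were the highest. The median of the list was −0.01 in Nfkb2-KO against WT cells and 0.01 in DKO against Nfkb2-KO cells, beside 0.00 for all genes.

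Among 16 stress genes linked to ATF3, Gadd45g, an activator of p38 and JNK signalling in T cells, was, like Atf3, highest in Nfkb2-KO cells. It was 9.26 and 9.53 in RelB-KO libraries, 9.96 and 10.37 in Nfkb2-KO libraries, 9.15 and 9.71 in DKO libraries and 9.24 and 9.72 in WT libraries. The Nfkb2-KO libraries did not overlap those of any other genotype. With the block it was 0.69 ± 0.09 higher in Nfkb2-KO than in WT cells (adjusted p = 0.00558, and 0.0405 without WT replicate 1), fell by 0.74 ± 0.09 in DKO against Nfkb2-KO cells (0.00246) and was 0.77 ± 0.09 higher in Nfkb2-KO than in RelB-KO cells (0.00196). With genotype alone its adjusted p was 0.412, 0.368 and 0.292 in these comparisons. Asns, asparagine synthetase, a gene induced by amino acid shortage, was 0.60 ± 0.08 higher in DKO than in Nfkb2-KO cells with the block (adjusted p = 0.00508), and Chac1 0.32 ± 0.07 higher (0.0442). Ddit3, also in this list, is given above. Most of the list went the other way from Atf3 and Gadd45g by sign. Of the 16 genes, 13 were higher in DKO than in Nfkb2-KO cells, and 12 were lower in Nfkb2-KO than in RelB-KO cells. The median of the list was −0.03 in Nfkb2-KO against WT cells, 0.12 in DKO against Nfkb2-KO cells and −0.1 in Nfkb2-KO against RelB-KO cells. In these 7 lists 0 genes were called by either model in RelB-KO against WT, DKO against WT or DKO against RelB-KO cells. The share of all genes called there was also low, at most 0.0652% by either model. Of the 31 calls named here that were made with the block, 6 held without each of the 8 libraries in turn, those of Nfe2l3 and Gadd45g in Nfkb2-KO against WT, DKO against Nfkb2-KO and Nfkb2-KO against RelB-KO cells. Nfe2l3 is low in level, as given above. The other 25 calls held in 1 to 7 of the 8 cases. Irf4, for example, ranged from 0.35 to 0.77 in Nfkb2-KO against WT cells and was called in 3 of 8.

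**Figure D4:**
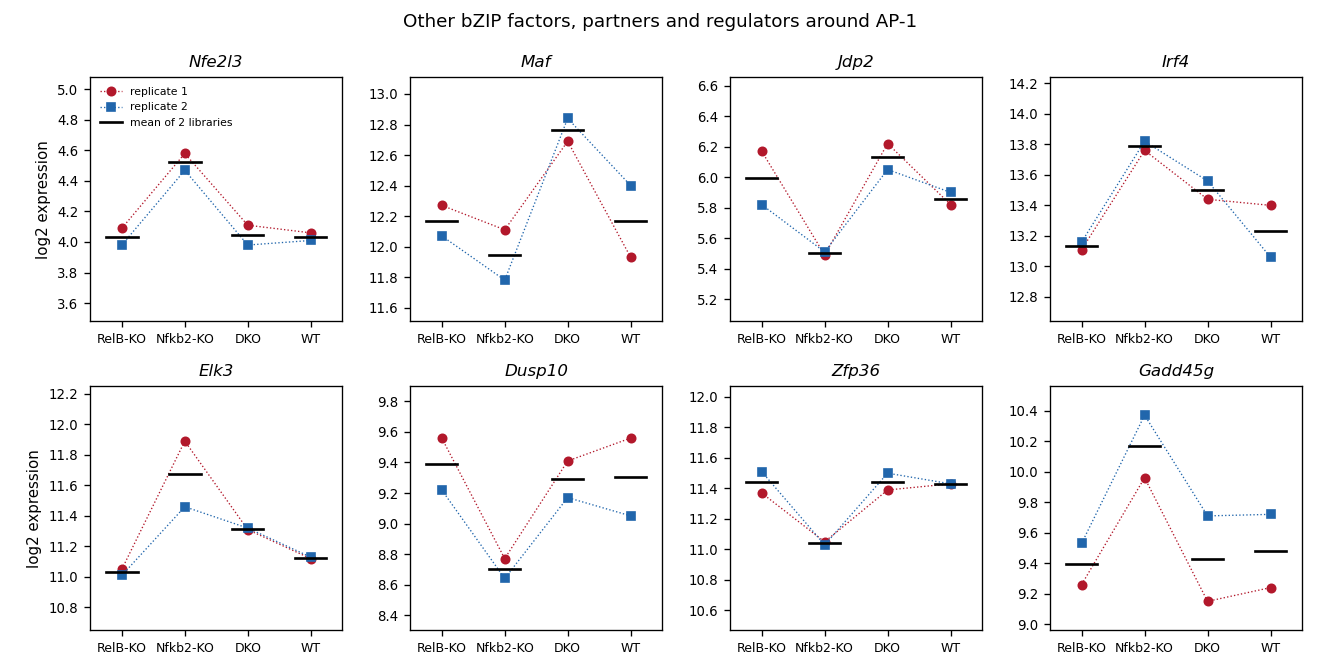
Deposited log2 expression (vertical axis, its own range of the same width in each panel) of 8 genes around AP-1 in RelB-KO, Nfkb2-KO, DKO and WT Treg cells, with circles for replicate 1, squares for replicate 2 and black bars for means of 2 libraries. Both Nfkb2-KO libraries are the highest for Nfe2l3, Irf4, Elk3 and Gadd45g and the lowest for Jdp2, Dusp10 and Zfp36. Both DKO libraries are the highest for Maf.

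The lists of other cell types were set beside these results. Of 10 markers of conventional dendritic cells 6 had log2 levels above 0 in all libraries, and the same number passed the low value filter. Their summed un-logged level was 363 to 537 in RelB-KO, 649 to 685 in Nfkb2-KO, 336 to 398 in DKO and 408 to 497 in WT libraries. The sum was thus highest in Nfkb2-KO cells, as were Junb and Atf3. The sum was higher in replicate 1 in all 4 genotypes. Junb was higher in replicate 2 in all 4, and Atf3 was higher in replicate 2 in 2 genotypes and lower in 2. The part of the sum in the differences of Junb and Atf3 was not tested. Most of the sum is Zbtb46, a factor of these cells that was 8.62 and 7.84 in RelB-KO libraries, 9.12 and 9.01 in Nfkb2-KO libraries, 8.04 and 7.65 in DKO libraries and 8.49 and 8.07 in WT libraries. With the block Zbtb46 was 0.79 ± 0.14 higher in Nfkb2-KO than in WT cells (adjusted p = 0.0239, and 0.0870 without WT replicate 1) and fell by 1.22 ± 0.14 in DKO against Nfkb2-KO cells (0.00213). The other markers of the list lay at many levels, and some hardly varied between libraries, below 0 and also above it. A level above 0 thus does not by itself show expression. Clec9a was listed at 0, Cd209a and Clec10a were at −1.73 or −1.72 and Itgax between −0.27 and −0.25. Flt3 was between 0.97 and 1.01, Wdfy4 between 2.40 and 2.54, Tlr3 between 3.37 and 3.5 and Naaa between 6.25 and 6.38. Xcr1, a marker of type 1 dendritic cells that lay between 4.94 and 5.52, fell by 0.38 ± 0.09 in Nfkb2-KO against RelB-KO cells with the block (adjusted p = 0.0452). In the same comparison Zbtb46 was 0.84 ± 0.14 higher with the block (adjusted p = 0.0127). When each library was left out in turn, these differences ranged from −0.53 to −0.24 for Xcr1 and from 0.6 to 1.08 for Zbtb46. That of Zbtb46 in Nfkb2-KO against WT cells ranged from 0.57 to 1.0. Both Nfkb2-KO libraries were the lowest for Xcr1 (5.00 and 4.94), unlike for Zbtb46.

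The sums of myeloid markers are given above with the replicate differences. B cell markers summed to 230 to 282 in RelB-KO, 267 to 282 in Nfkb2-KO, 287 to 291 in DKO and 231 to 263 in WT libraries. Among them Blk, between 3.30 and 3.60, fell by 0.27 ± 0.03 in DKO against Nfkb2-KO cells (adjusted p = 0.0298) and rose by 0.26 ± 0.03 in Nfkb2-KO against RelB-KO cells (0.0293), and Ms4a1 was at −0.46 to −0.44. Blk too lies below the stricter minimum of 32 un-logged. CD8 T and NK cell markers summed to 549 to 865, 665 to 754, 645 to 767 and 704 to 855 in the same order. The Treg and T cell markers summed to 185000 to 205000, 191000 to 194000, 216000 to 218000 and 185000 to 188000, highest in DKO cells. Il2ra, the most abundant of them, was 16.33 and 16.52 in DKO libraries against 15.93 and 15.94 in WT libraries. By sign 3 of the 8 markers were higher and 5 lower in DKO than in WT cells.

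Likeness between members and other genes was described over the 8 libraries after the mean of each replicate number was taken out, among 1194 or 1195 tested genes whose centred values had an SD of at least 0.2. Libraries of 1 genotype share that genotype, so these coefficients rest on 4 genotypes in 2 sets. Closest to Jun were Rab26 (Pearson r = 0.972), Kynu (0.931) and Nckap1 (0.887). Closest to Junb were Asb2 (0.994), Tmem176a (0.991) and Gprasp2 (0.991), and closest to Atf3 were Rrad (0.981), Zbtb46 (0.975) and Ccl1 (0.965). Zbtb46 is thus both a dendritic cell marker here and the second closest gene to Atf3. For Fos they were Ramp3 (0.974), Tnfaip3 (0.930) and Foxj1 (0.915), for Fosb Psd (0.916), Foxj1 (0.893) and Rhob (0.883), and for Fosl2 Tnfaip3 (0.870), Peg13 (0.852) and Ifngr1 (0.851). Tnfaip3 encodes A20, a brake on NF-kB signalling. Closest to Fosl1 were Pim2 (0.898) and the cell cycle genes Mcm10 (0.877) and E2f1 (0.876). The closest genes to Jund reached only 0.787 (Cxcr3), 0.745 (Slc37a2) and 0.735 (Slc24a3). The centred SD was 0.17 for Fos, 0.14 for Fosl1 and 0.10 for Jund, below the 0.2 asked of the other genes. The coefficients of these members thus rest on small differences.

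Among the members themselves, the highest coefficients of the centred values were those of Fos and Fosl2 (0.837), Fos and Fosb (0.794) and Junb and Atf3 (0.779). Fosl2 and Atf3 followed at 0.632, Fosb and Fosl2 at 0.597, Jun and Junb at 0.567 and Jun and Atf3 at 0.529. The highest for Jund was 0.273, with Fos. At the other end, Jun and Fosl1 were at −0.669 and Junb and Fosb at −0.525.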

How the data were processed

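The authors deposited 1 table of RNA-seq results on 8 libraries (4 genotypes, 2 replicates each). Its log2 values are called batch corrected log2 RPKM per the file headers, but un-logged they summed to between 18.163 and 19.709 M per library, and times exonic kilobases to between 110.1 and 114.0 M over 15085 genes, above the 1 M that RPKM allows, so they were read as log2 expression relative to library size. Per the submitters' processing notes STAR, DESeq2 1.10.1 and mm10 were used, without their roles. Counter, annotation and batch method are not given in the sources used here. The table also holds the authors' log2 fold changes and p-values of each knockout against WT, deposited with adjusted p-values. Its 8 columns of z-scores were not used here.

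The 13797 genes whose un-logged values averaged 1 or more were tested. The log2 values of all 8 libraries were fitted with limma 3.58.1 (R 4.3.3), with genotype alone and a variance trend, with Benjamini-Hochberg adjustment for each of 7 comparisons. A test on counts had been named for the case that the table held counts, which it does not. The replicate 2 minus replicate 1 differences correlated across genes at 0.812 to 0.887 in the 6 pairs of genotypes, so by this check from the data the numbers pair the samples, and a fit with replicate number as a block is given beside it. Both fits were tested on simulated data. Loci and exonic lengths came from GENCODE vM21 (mm10) and promoter windows from RefSeq (GRCm38.p6), where 8 of 9 members matched.

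The members, the lists and the comparisons were chosen with earlier results of these data known. The rule for named genes was all members, and from each list the genes called in a comparison, at most 4 by size of difference, or the lowest p where none was called. Those that passed by neither model are mostly left to counts. The alternatives were the block, a pseudocount of 1, no filter, a minimum of 32, quantile normalization, no variance trend, a fit of only the groups compared, and leaving out each library. Leaving out each library with the block was added after seeing the data.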

Additional observations from a re-analysis of the deposited data

How the results depend on the processing

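With genotype alone 0 members were called in the 7 comparisons and under the other alternatives run apart from those with the block and with libraries left out. The block moved the count to 2 in Nfkb2-KO minus WT (Jun and Junb), to 2 in DKO minus Nfkb2-KO (Junb and Atf3) and to 2 in Nfkb2-KO minus RelB-KO (Junb and Atf3), and it changed no other member's call. Leaving out 1 library in turn, with or without the block, gave 0 to 3, 0 to 3 and 0 to 2 members called in these comparisons and 0 to 1 in the interaction. Quantile normalization turned the small differences of Jund in DKO minus Nfkb2-KO (0.0204) and in Nfkb2-KO minus RelB-KO (−0.0175). Of the 56 member differences, 22 kept their direction with genotype alone when each library was left out and 34 did not, none of them called with all libraries. With the block, which takes out the replicate difference, 30 kept it and 26 did not. Of those 26, 25 were among the 34, and the other was Fos in Nfkb2-KO minus WT (−0.359 to 0.00826). Those that turned only with genotype alone were Junb and Jund in RelB-KO minus WT, Jund and Fosb in Nfkb2-KO minus WT, Fosb in DKO minus WT, Fosl1 in DKO minus Nfkb2-KO, Junb in DKO minus RelB-KO, and Jund and Fosb in the interaction. The lowest and highest of the 34 with genotype alone were as follows. In RelB-KO minus WT they were Junb −0.27 to 0.0744, Jund −0.372 to 0.00403, Fos −0.403 to 0.34, Fosb −0.241 to 0.684, Fosl1 −0.648 to 0.649, Fosl2 −0.552 to 0.348 and Atf3 −0.267 to 0.0541. In Nfkb2-KO minus WT they were Jund −0.299 to 0.0765, Fosb −0.635 to 0.111, Fosl1 −0.642 to 0.437 and Fosl2 −0.308 to 0.243. In DKO minus WT they were Jun −0.045 to 0.498, Junb −0.134 to 0.21, Jund −0.394 to 0.125, Fosb −0.674 to 0.0724 and Fosl1 −0.58 to 0.779. In DKO minus Nfkb2-KO they were Jund −0.282 to 0.237, Fos −0.181 to 0.0846, Fosb −0.207 to 0.129 and Fosl1 −0.478 to 0.881. In DKO minus RelB-KO they were Junb −0.00421 to 0.276, Jund −0.21 to 0.309, Fos −0.563 to 0.179, Fosl1 −0.581 to 0.779 and Fosl2 −0.701 to 0.199. In Nfkb2-KO minus RelB-KO they were Jund −0.0242 to 0.169, Fos −0.515 to 0.228, Fosl1 −0.751 to 0.546 and Fosl2 −0.38 to 0.52. In the interaction they were Jund −0.0981 to 0.42, Fos −0.388 to 0.355, Fosb −0.723 to 0.202, Fosl1 −0.478 to 0.881 and Fosl2 −0.669 to 0.231. The cause was not tested. With 2 libraries a genotype and an unknown depth, differences of several SE missed the threshold with genotype alone (Atf3 at −0.84 ± 0.14 in DKO minus Nfkb2-KO, Jun at 0.81 ± 0.19 in Nfkb2-KO minus WT), so a missed threshold does not show that levels were equal.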
